A study of Mus musculus with 4 samples.

Results

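Respiratory complex I, the NADH:ubiquinone oxidoreductase of the inner mitochondrial membrane, is described here through the nuclear genes whose symbols start with Nduf. They were measured in bulk muscle tissue of wild type mice of mixed 129S4/SvJae and C57BL/6 strain, the normal muscle of a study of muscle sarcomas. A gene was taken as a member where the platform annotation gave a probe set exactly 1 gene with such a symbol, and the probe set with the highest mean stood for it. This gave 39 members of 12393 genes in all. The 4 arrays formed 1 group, with 1 array per sample. The samples were titled nm7, nm8, skm4 and skm5. The labels say neither what the prefixes nm and skm mean nor which muscle, age or sex was used, and they do not state that the samples came from separate animals. RNA was extracted with a fibrous tissue kit or with TRIzol, and which sample had which is not stated. The skm minus nm difference is therefore a comparison of 2 sets of 2 samples that share genotype, strain and tissue label, and a p-value for it reflects no more than how these 4 samples scatter, in part perhaps technically. The tumours of the study were not analysed here.

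Complex I takes electrons from NADH through a flavin and a chain of iron-sulfur clusters to ubiquinone and couples this to pumping protons across the membrane. It is L-shaped, with a peripheral arm in the matrix that carries the flavin and the clusters, and a membrane arm that carries the pumps. The core subunits of the peripheral arm are nuclear genes, and those of the membrane arm are encoded in mitochondrial DNA. Around them sit accessory subunits, and a set of assembly factors, some of them named Ndufaf, helps to build the modules without staying in the finished enzyme. Skeletal muscle, above all its oxidative fibres, holds much of this enzyme.

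The 39 members comprised 6 core subunits, 8 accessory subunits of the peripheral arm, 19 of the membrane arm, 5 assembly factors, and Ndufa4, which was named as a complex I subunit and is now placed in complex IV. The mitochondrial genes were not analysed here. A further 8 probe sets named an Nduf gene together with another gene and were not used. In 18 members the probe set carried the plain suffix _at. In the other 21 it carried _a_at (11), _s_at (5) or _x_at (5), which mark probe sets that can match more than 1 transcript or sequence, so near-identical copies could add to those values.

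The samples had the markers of muscle fibres: all 6 listed had means of 12.46 to 14.64 on the log2 scale of the arrays, whose highest value was 14.76. Acta1, the skeletal actin, Ckm, the muscle creatine kinase, and Mb overlapped between the prefixes. Actn2, an actinin of the Z-disc, was higher in skm without overlap by 0.60, as was Tnnt3, a fast troponin, by 0.04, and Des, the muscle intermediate filament desmin, was lower by 0.24. Markers of other cells differed between the prefixes in the same libraries. All 6 measured lymphocyte markers were lower in skm without overlap, with a summed linear level of 2807 and 3245 in the nm samples and of 434 and 1213 in the skm samples. Of 5 adipocyte markers 3 were lower without overlap, with sums of 22394, 21586, 16542 and 20663 in the same order. The 6 keratinocyte markers summed to 2085 in skm5 and to 605 to 745 in the other samples, and 1 of them was higher in skm without overlap. Of 4 markers each, 2 endothelial, 2 macrophage and 2 fibroblast genes were lower in skm without overlap, and 1 endothelial gene was higher. In bulk tissue, fewer cells of a type and less RNA per cell cannot be told apart, and the part of these cells in the results on complex I was not tested. Over all genes, 25.8% were higher and 28.6% lower in skm without overlap. At an adjusted p under 0.05, limma called 4 of all genes between the prefixes (0.0323%), 3 higher (0.0242%) and 1 lower in skm (0.00807%).

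Complex I probe sets gave bright signals that were nearly level across the 4 samples. Of the 39 members, 34 lay above the 90th percentile of all genes by mean signal, and 32 had a mean of at least 12. Signals of different probe sets do not rank the amounts of their transcripts. Their median SD over the 4 samples was 0.094, against 0.191 over all genes, and 36 members had an SD under that all-gene median. The range over the samples exceeded 0.5 in 2 members (5.13%), Ndufa8 and Ndufaf1, against 38.7% of all genes, and exceeded 1, which is 2-fold, in 0 members against 5.98%. Bright genes as a class were steady too. Among the 471 genes with a mean of at least 12, the median SD was 0.107 and 14.2% had a range over 0.5, and the 32 members in that class had a median SD of 0.083. Whether signals saturate in this class was not tested.

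**Figure D1:**
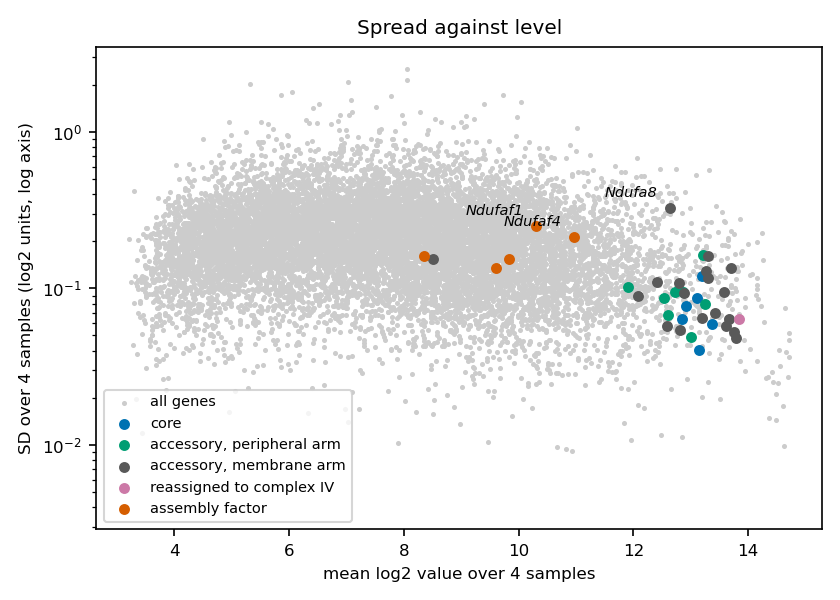
Spread against level for 12393 genes (grey) and the 39 complex I genes (coloured by role), with the mean log2 value over the 4 samples on the horizontal axis and the SD over them on a logarithmic vertical axis. Most members lie at the bright end with SDs between 0.04 and 0.16, and Ndufa8 stands highest among them at 0.33.

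No member passed limma's test between the prefixes over 12393 genes (lowest adjusted p = 0.078, Ndufa8). At an unadjusted p under 0.05 there were 3 members (7.69%), Ndufa8 and Ndufaf1 higher and Ndufaf4 lower in skm, against 23.5% of all genes. Of the members, 13 (33.3%) were higher in skm without overlap, against 25.8% of all genes, and 7 (17.9%) were lower without overlap, against 28.6%. Either way 20 (51.3%) did not overlap, against 54.4%, and the other 19 overlapped. With arrays centred on their medians the split was 17 higher and 5 lower, where 28.2% and 26.1% of all genes were higher and lower. Among the 32 bright members it was 10 higher and 6 lower, where 31% and 26.3% of the 471 bright genes were higher and lower. The median difference was 0.06 on the log2 scale, with 24 positive (61.5%) and 15 negative, against a median of -0.0034 and 49.5% positive over all genes. The members' median moved to 0.016 with nm7 left out, 0.089 with nm8 left out, 0.029 with skm4 left out and 0.022 after quantile normalization. The differences had both signs and were under 0.2 in 33 of 39 members. The median gap between the 2 samples of a prefix was 0.07 for nm and 0.09 for skm, and the median absolute difference between the prefixes was 0.09. In 14 members the difference was larger than both gaps. The shares of all genes under 0.2 and beyond both gaps were not computed, so these counts do not set complex I apart.

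The 95% intervals of the fit hold for the 1 probe set that stood for each gene. Other probe sets of Ndufab1, Ndufs7, Ndufs8, Ndufv1, Ndufa5 and Ndufaf4, described further on, gave differences outside them. The intervals were not widened for the number of genes and reached a median of 0.31 to either side of the difference. They lay between 1.5-fold lower and 1.5-fold higher in 36 of 39 members, the exceptions being Ndufa8, Ndufaf1 and Ndufaf4, and between 2-fold lower and 2-fold higher in all 39.

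**Figure D2:**
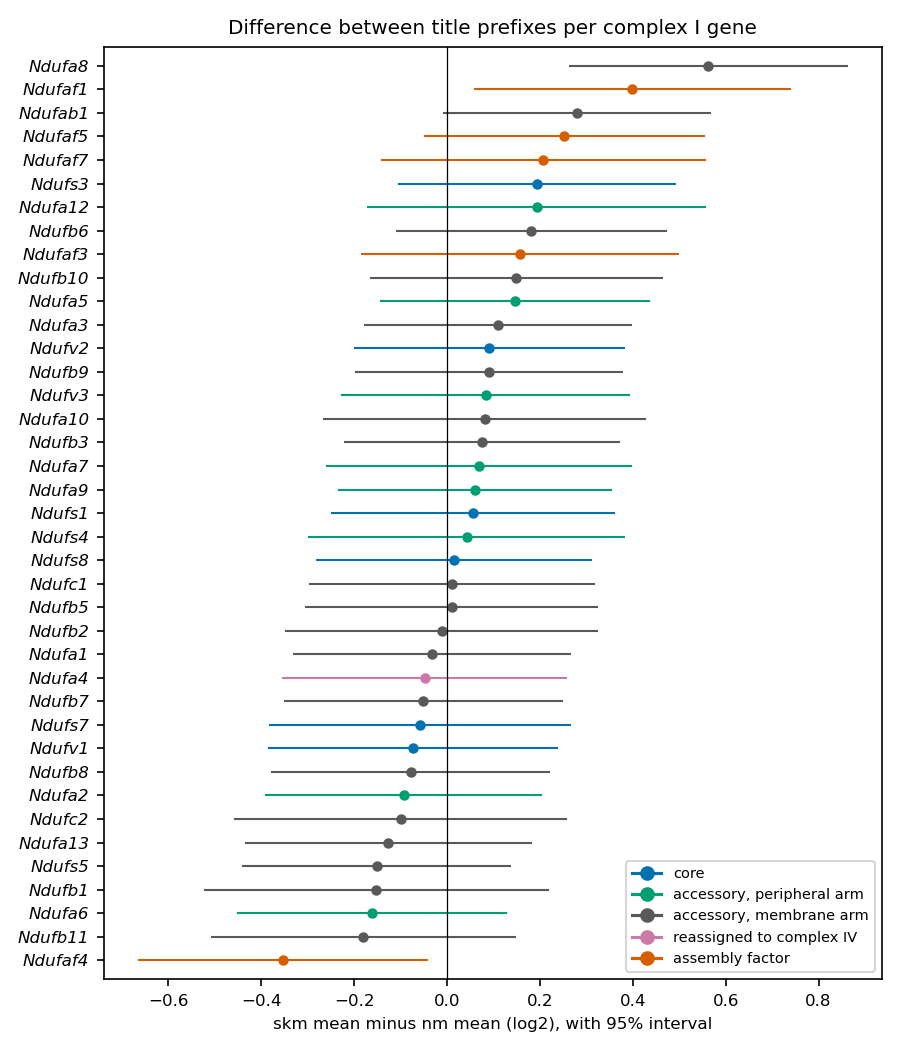
Difference between the skm and nm means of each complex I gene (log2, 2 samples each), ordered by size, with the 95% interval from limma's fit over all genes and colours for the role. The intervals of 36 of the 39 genes include 0, and those of Ndufa8, Ndufaf1 and Ndufaf4 do not.

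The promoters of the 3 members with the smallest unadjusted p were read for short motifs. The 250 bases before the start of each gene are shown because transcription of the respiratory chain is known to use nuclear respiratory factor 1 (NRF1), the ETS factor GABP and the oestrogen-related receptors (ERR), whose short motifs can be read there. The sequences are those of RefSeq on GRCm38.p6, written 5′ to 3′ on the strand of the gene and ending at the last base before the start. Capitals mark a motif.
Ndufa8, chr2:36049339-36049588, minus strand: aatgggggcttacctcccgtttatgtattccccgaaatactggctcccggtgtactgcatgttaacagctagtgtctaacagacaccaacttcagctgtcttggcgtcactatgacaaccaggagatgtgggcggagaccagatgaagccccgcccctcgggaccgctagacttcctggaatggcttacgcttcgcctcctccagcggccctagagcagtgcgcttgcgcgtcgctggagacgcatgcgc
Ndufaf1, chr2:119662835-119663084, minus strand: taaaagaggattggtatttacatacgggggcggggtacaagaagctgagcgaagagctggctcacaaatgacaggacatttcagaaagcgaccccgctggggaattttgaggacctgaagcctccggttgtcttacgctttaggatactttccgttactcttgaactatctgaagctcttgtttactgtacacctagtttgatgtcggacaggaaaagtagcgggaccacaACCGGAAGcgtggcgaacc
Ndufaf4, chr4:24897833-24898082, plus strand: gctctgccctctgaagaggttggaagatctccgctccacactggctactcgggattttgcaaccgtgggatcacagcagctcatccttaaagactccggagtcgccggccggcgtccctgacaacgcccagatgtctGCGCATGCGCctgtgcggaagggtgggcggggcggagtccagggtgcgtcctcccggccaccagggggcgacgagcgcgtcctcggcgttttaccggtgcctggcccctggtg
The letters searched, on both strands, were the palindrome set in capitals in Ndufaf4 for NRF1, ACCGGAAG for GABP and TCAAGGTCA for ERR, and no match of one overlapped a match of another in these promoters. The table held a promoter for 36 members, and Ndufa2, Ndufb9 and Ndufs1 were not matched. Only exact matches were counted. Ndufaf4 was the only one of the 36 with the exact NRF1 letters, 113 bases before the start, while 0.782% of all 32851 promoters held them. The Ndufa8 promoter ends in acgcatgcgc, which differs from the NRF1 letters in its first base alone and was not counted. Ndufaf1 and Ndufb6 held the GABP letters, 19 and 232 bases before the start, against 1.72% of all promoters. No member held the ERR letters, against 0.387% of all. These matches are a description of the letters, not of binding.

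The core subunits of the peripheral arm were the steadiest role, with a median SD of 0.070 and a median difference of 0.04. Ndufs3, a subunit of the module that binds ubiquinone, had the largest difference among them. It read 13.06 and 13.15 in nm7 and nm8 and 13.27 and 13.32 in skm4 and skm5, the order used for 4 values from here on. Both skm samples were above both nm samples, and the difference of 0.19 ± 0.12 (SE, n = 2 per prefix) did not pass the test (limma, adjusted p = 0.38). Ndufv2, which carries an iron-sulfur cluster next to the flavin, read 13.33, 13.34, 13.39 and 13.45. It did not overlap either, at a difference of 0.09.

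The remaining core subunits overlapped between the prefixes. Ndufs1, the largest subunit of the arm and a carrier of several iron-sulfur clusters, read 12.75 in nm7 and 12.88, 12.87 and 12.88 in nm8, skm4 and skm5. Its nm7 value stood apart below the others, which were nearly equal. Ndufs8, which carries iron-sulfur clusters on the path to ubiquinone, had the smallest SD of all members, 0.040, with 13.09, 13.19, 13.15 and 13.16. Ndufs7, which holds the last cluster before ubiquinone, read 13.07, 13.20, 13.15 and 13.01, highest in nm8 and lowest in skm5. Ndufv1, which binds NADH and the flavin, read 12.89, 13.02, 12.92 and 12.83 and was likewise highest in nm8 and lowest in skm5.

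**Figure D3:**
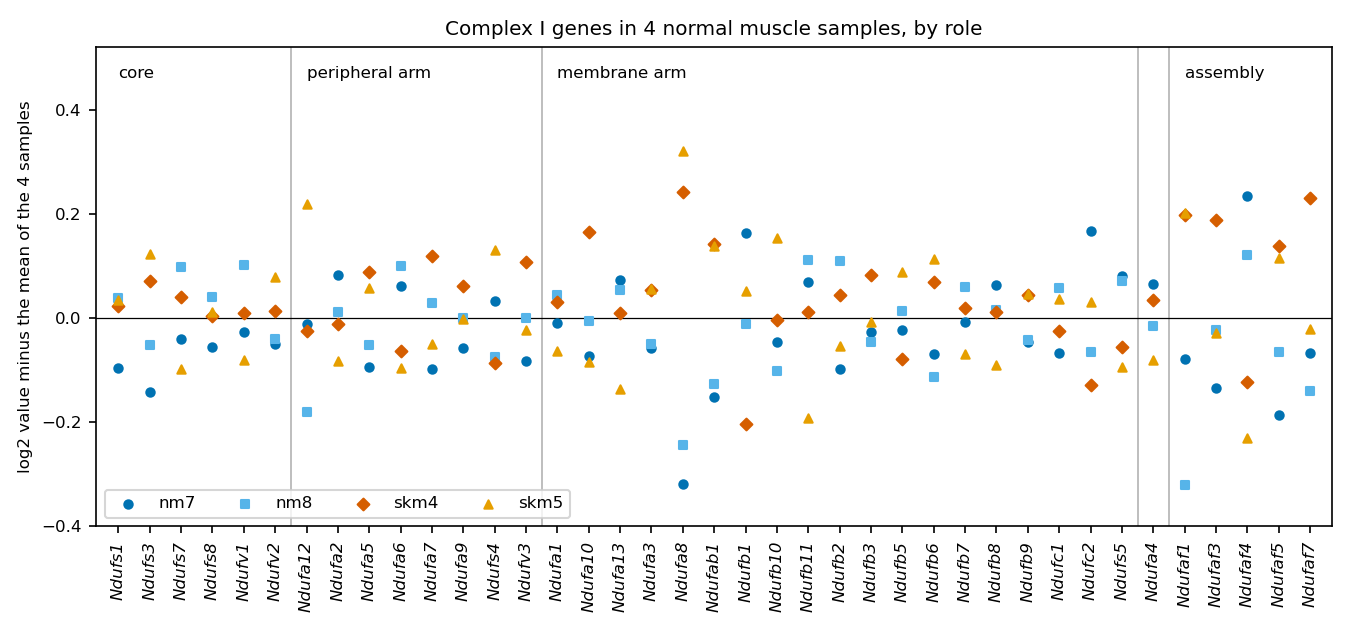
Each complex I gene in each sample, as the log2 value minus the gene's mean over the 4 samples, in order of role. The nm and skm points of Ndufa8 lie farthest apart, at means of 12.35 and 12.91 before centring, and Ndufaf4 is the assembly factor whose skm points lie below its nm points.

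Among accessory subunits of the peripheral arm, 1 of 8 was higher in skm without overlap and 2 were lower, against 25.8% and 28.6% of all genes. The other 5 overlapped, and the median difference of the role was 0.06. Ndufa12, which sits near the NADH-oxidising module and resembles an assembly factor in sequence, had the largest SD of this role, 0.16. It read 13.20, 13.03, 13.19 and 13.43. Its nm7 and skm4 values were almost the same, so its difference of 0.19 ± 0.15 rested on nm8 and skm5, and it was 0.07 to 0.31 with 1 sample left out. Ndufa5, a subunit at the base of the arm, was higher in skm, at 12.43, 12.48, 12.62 and 12.59, a difference of 0.15 (adjusted p = 0.50).

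Ndufa6 was lower in skm without overlap, at 12.93, 12.97, 12.81 and 12.77, a difference of -0.16 (limma, adjusted p = 0.46). It belongs to the LYR motif proteins that hold an acyl carrier protein on the complex. Ndufa2 was also lower, at 12.68, 12.61, 12.58 and 12.51, but by only 0.09. Ndufa9, which steadies the junction of both arms, had an SD of 0.049, with 12.95, 13.01, 13.07 and 13.01. Ndufs4, whose loss in mice gives a model of Leigh syndrome, read 11.93, 11.83, 11.81 and 12.03 and overlapped. The 7 members of this role other than Ndufa12, which include Ndufa7 and Ndufv3, had SDs of 0.05 to 0.10.

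The membrane arm held the member that differed most. Ndufa8, a subunit on the intermembrane space side that is built on paired cysteine motifs, read 12.31 and 12.39 in the nm samples and 12.87 and 12.95 in the skm samples. The samples of a prefix lay within 0.08 of each other and the prefixes did not overlap. The means were 12.35 in nm and 12.91 in skm, a difference of 0.56 ± 0.12 (SE), 1.48-fold with a 95% interval of 1.20 to 1.82. It missed the threshold over all genes (limma, adjusted p = 0.078), and over the alternative settings its adjusted p ran from 0.012 to 0.28. It passed at 0.022 where genes under the median level were left out and at 0.012 with a variance prior that follows intensity, where 16.6% and 8.96% of genes were called. Its difference was 0.52 to 0.60 with each sample left out in turn.

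Ndufab1, the mitochondrial acyl carrier protein that is part of both arms and serves fatty acid and lipoic acid synthesis, was next. It read 13.15, 13.18, 13.45 and 13.44, with no overlap. The difference was 0.28 ± 0.11 (limma, adjusted p = 0.22). A second probe set of the gene ran the opposite way, at 10.75, 10.85, 9.93 and 10.19, a difference of -0.74, and the remaining, dim one read 4.99 to 5.76. The direction of Ndufab1 thus depended on the probe set. It became -0.09 with the mean of its 3 probe sets and -0.74 (limma, adjusted p = 0.068) where probe sets with suffixes other than _at were left out.

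The Ndufb subunits, which surround the outer part of the membrane arm, went both ways. Ndufb6 was higher in skm, at 12.73, 12.68, 12.86 and 12.91, a difference of 0.18 ± 0.12. Ndufb11 was lower, at 13.77, 13.82, 13.72 and 13.51, a difference of -0.18 ± 0.13, which was -0.08 when skm5, its lowest sample, was left out and -0.28 without skm4. Ndufb1, a small subunit, read 8.68, 8.50, 8.31 and 8.57 and overlapped. Neither Ndufb6 nor Ndufb11 passed the test (limma, adjusted p = 0.40 and 0.46).

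The other 14 members of the membrane arm differed by -0.15 to 0.15, with SDs of 0.05 to 0.13. Of these, 4 were higher without overlap, Ndufa3, Ndufb3, Ndufb9 and Ndufb10, and 3 were lower, Ndufa13, Ndufb8 and Ndufs5. Ndufa3 and Ndufb9 show how small such separations can be. Ndufa3 read 13.60, 13.61, 13.71 and 13.72, and Ndufb9 read 13.70, 13.71, 13.79 and 13.79. Ndufa13, also known as GRIM-19 for a role in cell death, was lower at 13.66, 13.64, 13.60 and 13.45, and Ndufs5, a small subunit on the intermembrane space side, at 12.16, 12.15, 12.02 and 11.98. Ndufa1, a subunit early in the growth of this arm, had an SD of 0.048 and read 13.78, 13.83, 13.82 and 13.72. Ndufa10, Ndufb2, Ndufb5, Ndufb7, Ndufc1 and Ndufc2 overlapped. Over the whole role, 7 of 19 were higher and 4 lower without overlap, against 25.8% and 28.6% of all genes. The median difference of the role was 0.01.

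Ndufa4, the subunit now placed in cytochrome c oxidase, overlapped between the prefixes. It read 13.90, 13.82, 13.87 and 13.76, a difference of -0.05 (95% interval -0.35 to 0.26). Its SD of 0.064 was close to the median of the core subunits. Its paralog Ndufa4l2 was not analysed here.

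The assembly factors had mean signals of 8.35 to 10.97 and a median SD of 0.16, against 0.087 over the 33 subunits. The subunits were brighter, with a median level of 13.11. The median SD was 0.191 over all genes and 0.107 over genes with a mean of at least 12. Ndufb1, a dim subunit with a mean of 8.51, had an SD of 0.154. The part of signal level in this contrast was not tested. Of the 5 assembly factors, 3 were higher in skm without overlap, 1 was lower and 1 overlapped, with a median difference of 0.21. Over all genes, 25.8% were higher and 28.6% lower without overlap. Ndufaf1, a chaperone of the membrane arm that works within the MCIA assembly complex, read 10.23, 9.99, 10.51 and 10.51. The skm values were nearly equal and above both nm values, which themselves lay 0.24 apart. The difference was 0.40 ± 0.14, or 1.32-fold (limma, adjusted p = 0.17), and 0.28 to 0.52 with each sample left out in turn.

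Ndufaf4, which acts with Ndufaf3 on the module that binds ubiquinone, was lower in skm. It read 11.20, 11.09, 10.85 and 10.74, a difference of -0.35 ± 0.12 (limma, adjusted p = 0.17). A second, dimmer probe set of Ndufaf4 read 10.19, 9.94, 10.02 and 10.04 and differed by -0.03, so the lower value in skm was seen in 1 of its 2 probe sets. Its partner Ndufaf3 did not share the order: it read 9.47, 9.58, 9.79 and 9.58, highest in skm4, with a difference of 0.16. Whether the partners differ from each other was not tested.

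The other 2 factors are enzymes. Ndufaf5, a hydroxylase of Ndufs7, read 9.64, 9.76, 9.96 and 9.94. It was higher in skm without overlap by 0.25 ± 0.12 (limma, adjusted p = 0.28). Ndufaf7, a mitochondrial methyltransferase, read 8.29, 8.21, 8.58 and 8.33, so that skm5 barely cleared nm7. Its difference of 0.21 was 0.08 without skm4 and 0.33 without skm5.

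The difference found for a gene could depend on which of its probe sets was taken. Complex I was read by 74 probe sets, and 20 members had more than 1. In 10 of these the differences had both signs. Ndufs8 had 6 probe sets. The brightest, which represents the gene above, differed by 0.02, a second bright one by 0.01, and the other 4 by 0.19 to 0.41, each higher in skm without overlap. The dimmest of them read 8.22, 8.12, 8.58 and 8.58. Other core subunits had such a contrast too. A second probe set of Ndufs7 read 12.40, 12.53, 12.86 and 12.77, a difference of 0.35 where the brightest gave -0.06. For Ndufv1 a probe set with the suffix _at read 12.54, 12.62, 12.98 and 12.83, a difference of 0.32 where the others gave -0.07 and -0.15.

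The accessory subunits with both signs were Ndufab1, described above, and 6 others. In Ndufa12 the probe sets ran from -0.07, in a dim one at a mean of 4.38, to 0.44, in one that read 12.67, 12.67, 13.08 and 13.14. In Ndufa7, which read 12.63, 12.75, 12.84 and 12.67, 1 of 5 probe sets differed by 0.35 and the others by -0.04 to 0.07. A second probe set of Ndufa5 read 12.40, 12.32, 12.15 and 12.20, lower in skm without overlap where the first was higher.

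Ndufa10, a membrane arm subunit related to nucleoside kinases, read 13.23, 13.30, 13.47 and 13.22, and its second probe set read 9.58, 9.75, 9.41 and 9.53, a difference of -0.19. Ndufb7, on the intermembrane space side, read 12.81, 12.87, 12.83 and 12.75, and its second probe set differed by 0.16. In Ndufb9 the opposite sign was small, at -0.03. The core subunit Ndufv2 was higher in skm without overlap by its brightest probe set. Its others were lower without overlap, though by small differences of -0.06 and -0.05. By suffix, the 34 probe sets ending in _at had a median difference of 0.08, with 14 higher and 7 lower without overlap. The 40 with other suffixes had a median of -2.25e-05, with 9 higher and 9 lower. Over all 20380 probe sets, 25.6% were higher and 27.7% lower without overlap. The part of suffix and brightness in the disagreement was not tested. Ndufb11, Ndufb2 and Ndufc2 were among the members whose probe sets all had the same sign.

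**Figure D4:**
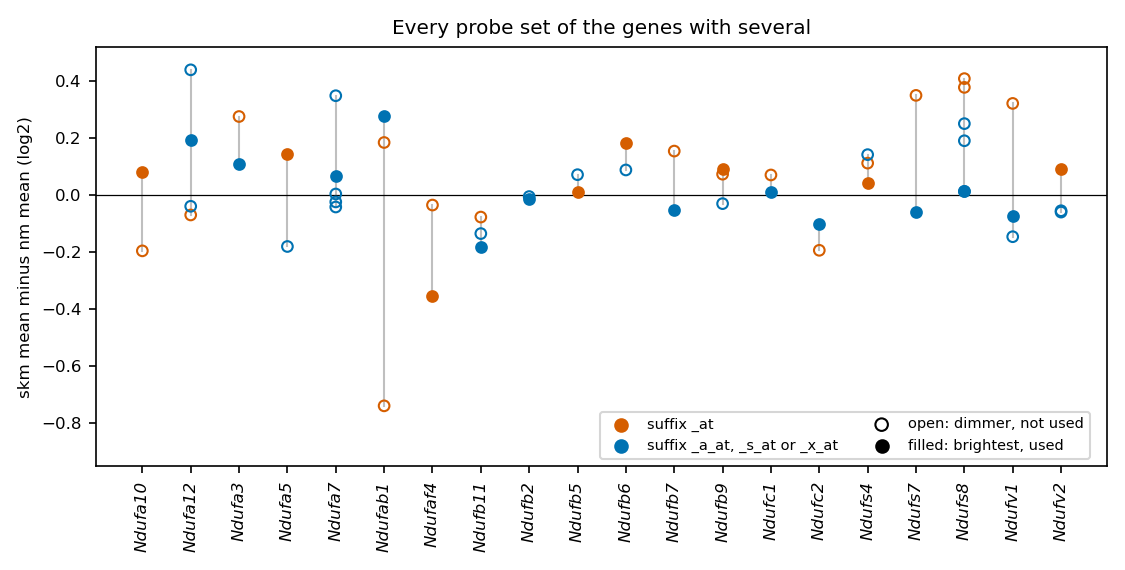
Difference between the skm and nm means (log2) for every probe set of the 20 complex I genes with more than 1, with filled points for the brightest probe set, open points for the others and colour for the suffix. Ndufab1 spans -0.74 to 0.28, and in Ndufs8, Ndufs7 and Ndufv1 the open points reach 0.32 to 0.41 while the filled points lie near 0.

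Of the 20 other complex I genes listed (mitochondrial subunits and assembly factors named otherwise), 10 had a usable probe set, all of them assembly or import factors. None passed limma's test over all genes, and 3 had an unadjusted p under 0.05, all higher in skm (10.6% of all genes). Timmdc1, a membrane arm assembly factor, read 9.49, 9.35, 10.04 and 10.12, a difference of 0.66 ± 0.12 (limma, adjusted p = 0.069). Ecsit, a partner of Ndufaf1 in the MCIA complex, read 10.33, 10.35, 10.90 and 10.85, a difference of 0.53 ± 0.12 (adjusted p = 0.081). Foxred1, an oxidoreductase needed late in assembly, read 7.96, 7.996, 8.34 and 8.53, a difference of 0.46 ± 0.13 (adjusted p = 0.12). In these 3 genes every skm sample was above every nm sample.

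The rest of that list was nearer to level. Oxa1l, the insertase of the inner membrane, and Tmem186, another MCIA member, were higher without overlap by 0.35 and 0.21. Acad9, also of the MCIA complex, overlapped at a difference of 0.03, as did Tmem70, Dmac1, Aifm1 and Lyrm2 at -0.07 to 0.06. Among the genes named here as MCIA members the differences were thus 0.40 for Ndufaf1, 0.53 for Ecsit, 0.21 for Tmem186 and 0.03 for Acad9. Whether they differ from each other was not tested. With genes under the median level left out, Timmdc1 (limma, adjusted p = 0.020), Ecsit (0.023) and Foxred1 (0.041) passed, where 16.6% of the genes tested were called. With a variance prior that follows intensity Timmdc1 (0.015) and Ecsit (0.016) did, where 8.96% were called.

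The other respiratory complexes are set beside complex I for scale. The 33 complex I subunits had a median difference of 0.04, and the 46 measured genes listed for complexes II to V had 0.03. The lists did not hold every measured gene of these complexes, and Atp5pb of complex V was not among the 46. Of those 46, 18 were higher and 7 lower without overlap, against 25.8% and 28.6% of all genes. By complex the medians were 0.10 for complex II, 0.01 for complex III, -0.01 for complex IV and 0.10 for complex V. Unlike the complex I subunits, these lists also held assembly factors (Sdhaf1, Sdhaf2 and Sdhaf4) and Cycs and Atpif1. The complex II median was the value of Sdhaf4. Its subunits differed by -0.09 (Sdha), 0.29 (Sdhb), 0.52 (Sdhc) and 0.01 (Sdhd). The difference between complexes was not tested. Single genes elsewhere lay on both sides of 0. Cox7c, a small subunit of cytochrome c oxidase, was lower in skm without overlap, at 7.32, 7.05, 6.11 and 5.95, a difference of -1.15 (limma, adjusted p = 0.051). The brighter of its 2 probe sets, with the suffix _s_at, had a mean of only 6.60, against a median mean of 13.64 over complex IV. Whether it reads the main transcript was not tested. Sdhc, a membrane anchor of succinate dehydrogenase, was higher by 0.52 and Atp5b, the catalytic subunit of ATP synthase, by 0.48 (limma, adjusted p = 0.082 and 0.098).

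**Figure D5:**
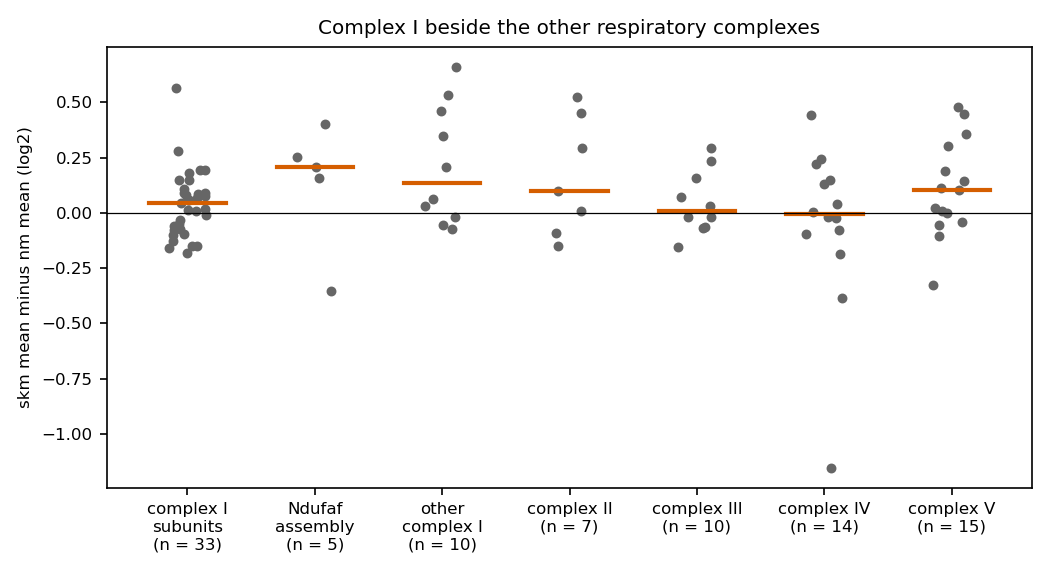
Difference between the skm and nm means (log2) for the listed genes of complex I, its assembly factors and complexes II to V. There is 1 point per measured gene and a line at each median. The complex II list includes assembly factors. The medians lie between -0.01 and 0.21, and Ndufa8 is the highest of the complex I subunits at 0.56.

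Slow fibre markers varied more between the samples than complex I genes did, with a median SD of 0.42 over 8 markers against 0.094. As deviations from gene means, their medians were 0.29, -0.26, 0.41 and -0.43, and those of the 39 complex I genes were -0.05, -0.01, 0.03 and -0.0013. Myh7, the slow myosin heavy chain, read 12.92, 12.46, 12.83 and 11.64, and the myosins Myh1, Myh2 and Myh4, the troponins Tnni1 and Tnni2 and myoglobin (Mb) also overlapped between the prefixes. The slow fibre list was high in nm7 and skm4, whereas the complex I median was lowest in nm7, and the part of fibre type in the results was not tested. Of the members, 16 had their lowest value in nm7 and 13 in skm5, against 26.5% and 25.04% of all genes, and 6 in nm8 and 4 in skm4, against 21.8% and 26.6%. Highest values lay at 8 members for nm7, 10 each for nm8 and skm4, and 11 for skm5, against 22.9%, 27.2%, 29.3% and 20.6% of all genes.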

How the data were processed

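Total RNA of whole normal muscle was measured on 1-colour Affymetrix arrays, 4 samples in 1 group. The authors deposited RMA values (robust multi-array averaging) on the log2 scale, 1 per probe set; the submitters' processing notes name Affymetrix Expression Console 1.1. That scale rests on their range (2.80 to 14.76, array medians 7.26 to 7.30), and no source used here says which arrays were normalized together. Background, depth and detection calls per probe are not part of these values, and the number of arrays limits the precision.

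Of 22690 probe sets, 64 controls were left out, 20380 had 1 gene and 691 several. Symbols were updated through Entrez identifiers with the GRCm38.p6 gene table, used for names alone. The brightest probe set stood for a gene. The skm minus nm difference was fitted with limma 3.58.1 in R 4.3.3 (lmFit, eBayes, 2-sided, 2 residual and 3.51 prior degrees of freedom) over 12393 genes with Benjamini-Hochberg adjustment at 0.05. The fit was tested on simulated data with planted differences larger than that of any member. That test does not show whether differences as small as the members' would be found. Every member is named or counted. Values in every sample are given for the core subunits, the assembly factors, Ndufa4, the 10 largest differences, the 8 largest and 3 smallest SDs, any outlying sample and probe sets that disagreed. Lists are described by counts and medians. The members and lists were chosen with earlier results of these data known.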

Additional observations from a re-analysis of the deposited data

Results flagged for a closer look

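Ndufs1, the core subunit that carries several iron-sulfur clusters, had 1 sample apart from the others. Its nm7 value of 12.75 lay below 12.88, 12.87 and 12.88 in nm8, skm4 and skm5, with a gap to the next value of 0.885 of the whole range, above the 95% critical value of Dixon's ratio for 4 samples. The range itself was 0.13 on the log2 scale. It was the only one of the 39 members past that value, and 4.21% of all genes were past it. Chance alone puts about 1 in 20 groups past it.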

How the results depend on the processing

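The count of members past limma's test, 0, stayed 0 under quantile normalization, centring of arrays, the mean of probe sets, leaving out probe sets with other suffixes, each sample left out and probe sets in place of genes, and was 1 (Ndufa8) with the median level filter, with an intensity trend, at a threshold of 0.10 and, chosen after seeing the data, at a mean of at least 12. It was 3 (Ndufa8 and Ndufab1 higher, Ndufaf4 lower) with the filter and the trend together, also chosen after seeing the data, where 18.5% of genes were called. The members without overlap numbered 14 to 21 higher and 10 to 15 lower with 1 sample left out, where a lone sample overlaps less easily and is assumed to vary like the others. Over all genes 35.2% to 40.5% were then higher and 38.4% to 41.2% lower. Among the 74 probe sets 23 were higher and 16 lower, against 25.6% and 27.7% of all 20380. The members' median difference was 0.0217 with quantile normalization and 0.0162 (without nm7) to 0.0886 (without nm8) with 1 sample left out. The median of the other complex I genes was 0.14 as reported, 0.16 with quantile normalization and with centring, 0.0837 with the mean of probe sets, 0.0836 without other suffixes, and 0.10 to 0.16 with 1 sample left out. That of complexes II to V was 0.0484 with centring, 0.0776 with the mean of probe sets, 0.0950 without other suffixes and 0.0258 to 0.0498 with 1 sample left out. Ndufab1 turned to -0.0913 with the mean of probe sets and -0.74 without other suffixes, and Ndufa12 to -0.0691 without other suffixes, where by construction the 3 probe sets of Ndufab1 were averaged, or another probe set stood for the gene. Over all genes the test called 4 as reported, 188 with quantile normalization, 1026 with the median level filter, 92 with the mean of probe sets, 78 without other suffixes, 1110 with the trend, 995 at 0.10, 326 of 20380 probe sets, 39 of 471 bright genes, 1146 with filter and trend, 15 without skm5 and 0 without any 1 of the other samples (1889 to 2346 at an unadjusted p under 0.05). The cause of the other shifts was not tested. The members' median SD stayed within 1.5 times of 0.094 throughout. No paired analysis was possible because the labels give 1 group and no number that pairs samples. What signal over background or saturation limits was not tested.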

Other observations

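The regulators of mitochondrial genes held 0 of 7 members past limma's test over all genes, and 2 at an unadjusted p under 0.05, both lower in skm (13.0% of all genes). Yy1, a zinc finger factor that acts with the coactivator Ppargc1a on mitochondrial genes, read 10.47, 10.35, 9.96 and 9.86 in nm7, nm8, skm4 and skm5, a difference of -0.50 ± 0.12 (adjusted p = 0.097). Gabpa, the DNA-binding subunit of GABP, read 10.13, 9.99, 9.54 and 9.76, a difference of -0.41 ± 0.14 (adjusted p = 0.17). Esrra, an oestrogen-related receptor, was higher without overlap by 0.31, and Ppargc1a was lower without overlap by 0.13. Nrf1, Tfam, which packages and transcribes mitochondrial DNA, and Ppargc1b overlapped, at differences of -0.06, 0.01 and 0.06.

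The promoters of the 36 matched members were rich in CpG. Their 250 bases before the start had a median GC content of 58.2% and a median of 16.5 CpG, against 52.4% and 6.0 over all 32851 promoters of the table. The letters TATAAA, read on the strand of the gene, were in 2 of the 36 (5.56%) and in 7.59% of all. With the 50 bases after the start added, the NRF1 letters were in 2 members, Ndufaf4 and Ndufaf5 (0.971% of all promoters), and the GABP letters in 4, Ndufaf1, Ndufb6, Ndufs3 and Ndufs8 (2.3% of all). The letters AAGATGGC, the core of a YY1 motif, were searched after the other motifs had been read. On both strands of that 300-base window they were in 6 of the 36, Ndufa3, Ndufa9, Ndufb8, Ndufc1, Ndufs4 and Ndufs7, against 2.75% of all promoters. In all 6 they lay after the start and on the strand of the gene, with the first base at positions 23 to 39. The letters include ATG, and whether they fall on a start of translation was not tested. In the 250 bases before the start no member held them, against 1.56% of all promoters. The skm minus nm differences of these 6 genes ran from -0.08 to 0.11.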
